A study of Mus musculus with 12 samples.

Results

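The type I interferon response genes described here are 10 mouse genes chosen by symbol, Irf7, Irf9, Isg15, Ifit1, Ifit2, Ifit3, Rsad2, Usp18, Oasl2 and Phf11b, out of 22180 genes that the array's annotation named. Each had 1 probe set (a group of probes read together as 1 value), and each of the 10 was among the 16635 genes kept after the dimmest 25% of genes were left out. The samples came from mice in which azoxymethane (AOM), a DNA-alkylating carcinogen, and dextran sulfate (DSS), given to provoke colitis, had produced colorectal tumors. Tumor and stroma, the supporting tissue around the tumor cells, were cut apart by laser-capture microdissection from paraffin material. The 4 groups of 3 samples were tumor of Stat3wt mice, stroma of Stat3wt mice, tumor of Stat3dm mice and stroma of Stat3dm mice, where Stat3wt is wild type and Stat3dm is taken as the study's myeloid-specific conditional Stat3 deletion. The study asked which stromal expression changes follow from STAT3 signalling in myeloid cells.

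Some features of the groups limit what they can show. All 4 groups had received the same carcinogen and colitis treatment, and no untreated colon was analysed here. The labels give neither the driver of the deletion nor the age or strain of the mice. Each sample pooled 2 tumors of 1 mouse, and the labels do not say whether tumor and stroma of the same number came from the same mouse. Levels are log2 signals, so a difference of 1 is a doubling.

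Type I interferons are cytokines that cells release on sensing viral or misplaced nucleic acid. They bind the receptor IFNAR1 and IFNAR2, whose kinases JAK1 and TYK2 phosphorylate STAT2. STAT2 and IRF9 are parts of a complex that binds the interferon-stimulated response element (ISRE) in the promoters of the induced genes. Interferon-gamma instead acts at gamma-activated sites (GAS), and many genes answer to both. In the gut, interferon is made and answered by immune, stromal and epithelial cells alike, and STAT3 is itself activated by several cytokines, interleukin-6 and interleukin-10 among them.

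The promoters are shown because the ISRE is the sequence through which many genes of this response are known to be induced. RefSeq promoter sequences of assembly GRCm38.p6 were matched for 9 of the 10 genes. The ISRE letters GAAA, any 2 bases, GAAA, searched on both strands in the 250 bases before the start of transcription, occurred in 5 of these 9, Isg15, Ifit1, Ifit3, Rsad2 and Phf11b. Over all genes in the table, 936 of 27025 held them, or 3.46%. By windows, since a gene can have several starts, these were 5 of 11 and 2.98%. The GAS letters TTCNNNGAA were found in 1 of the 9 genes, Ifit2, and in 8.13% of all genes (7.02% of windows). The 160 bases up to the start are given below for the 5 genes with ISRE letters, which stand in capitals, and for Irf7, which had none in its window. A stretch in capitals that begins with TTTC is the same element read on the other strand. In Isg15 the capitals span 3 overlapping matches.
Isg15: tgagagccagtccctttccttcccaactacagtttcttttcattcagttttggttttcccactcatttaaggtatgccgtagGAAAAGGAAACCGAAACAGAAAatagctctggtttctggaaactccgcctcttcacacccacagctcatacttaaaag
Ifit1: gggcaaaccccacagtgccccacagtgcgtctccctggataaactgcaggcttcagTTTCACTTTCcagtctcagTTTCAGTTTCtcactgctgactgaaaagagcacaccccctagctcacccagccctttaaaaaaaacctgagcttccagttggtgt
Ifit3: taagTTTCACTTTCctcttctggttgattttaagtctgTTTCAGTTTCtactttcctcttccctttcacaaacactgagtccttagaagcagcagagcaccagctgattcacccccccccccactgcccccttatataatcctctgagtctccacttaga
Rsad2: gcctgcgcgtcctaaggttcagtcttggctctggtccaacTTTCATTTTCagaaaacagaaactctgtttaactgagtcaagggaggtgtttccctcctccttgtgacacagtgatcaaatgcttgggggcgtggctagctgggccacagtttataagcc
Phf11b: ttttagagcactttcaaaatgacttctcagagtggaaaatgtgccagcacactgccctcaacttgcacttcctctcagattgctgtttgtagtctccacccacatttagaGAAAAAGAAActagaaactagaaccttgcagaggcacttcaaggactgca
Irf7: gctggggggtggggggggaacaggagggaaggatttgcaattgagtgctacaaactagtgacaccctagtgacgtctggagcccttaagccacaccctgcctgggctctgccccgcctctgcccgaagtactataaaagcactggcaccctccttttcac
These stretches lie at chr4:156200819-156200978 for Isg15 (minus strand), chr19:34640729-34640888 for Ifit1 (plus strand), chr19:34583369-34583528 for Ifit3 (plus strand), chr12:26456453-26456612 for Rsad2 (minus strand), chr14:59341331-59341490 for Phf11b (minus strand) and chr7:141266425-141266584 for Irf7 (minus strand). Phf11b carried its match nearest to the start, 50 to 41 bases before it. The matches of Isg15 reached from 78 to 57 bases before the start, and Ifit1 and Ifit3 each held 2 separate matches within 160 bases of it. A match of letters is a description of the sequence and not a measured binding site.

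The arrays had medians between 4.20 and 4.43 and standard deviations between 1.60 and 1.91, and arrays of 1 group correlated at 0.881 to 0.967 over the genes tested. No pair of arrays was identical. The number of arrays, 3 in each group, limits the precision. Nothing states that samples of a group came from separate litters or days, so p-values measure only the spread between these samples within the 4 groups. If tumor and stroma of a number shared a mouse, the p-values between tissues leave that pairing out, except with the replicate number as a block. Stat3, the deleted gene, had 1 probe set, at 7.35 ± 0.65 (SD, n = 3) in Stat3wt stroma and 7.36 ± 0.04 (SD, n = 3) in Stat3dm stroma, a difference of 0.00 (limma, adjusted p = 0.999). The bulk level therefore did not check the genotype label, and whether its probes fall within the removed exons is not known here. The capture itself could be checked. The mean of 9 epithelial markers ran from 8.49 to 9.34 in the 6 tumor samples and from 7.18 to 8.60 in the 6 stroma samples, and all 9 markers were lower in stroma in both genotypes. Epithelial markers were thus still read in stroma, most in Stat3dm stroma 1, at 8.60.

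The comparison that the study was built for is Stat3dm against Stat3wt stroma. All 10 interferon response genes had a higher mean in Stat3dm stroma, by a median of 0.67 on the log2 scale, where the median over all genes was -0.02 and 47.2% of genes were above 0. The clearest were Phf11b, 2.25-fold higher, and Irf7, 2.05-fold higher. None of the 10 passed an adjusted p of 0.05, and neither did any other of the 16635 genes (0% called). At an unadjusted p under 0.05, 7 of the 10 were higher, against 3.14% of all genes called in that direction. For 5 of the 10, Irf7, Isg15, Ifit1, Oasl2 and Phf11b, every Stat3dm stroma sample was above every Stat3wt stroma sample, against 5.13% of all genes. The 10 genes were chosen with earlier results of these data known. The counts here and below therefore describe the list and are no test of it. The mean level of 6 leukocyte markers was also higher in all 3 Stat3dm stroma samples than in the Stat3wt ones, and its part in these differences was not tested. In captured tissue, more cells of a type and more RNA per cell cannot be told apart.

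**Figure D1:**
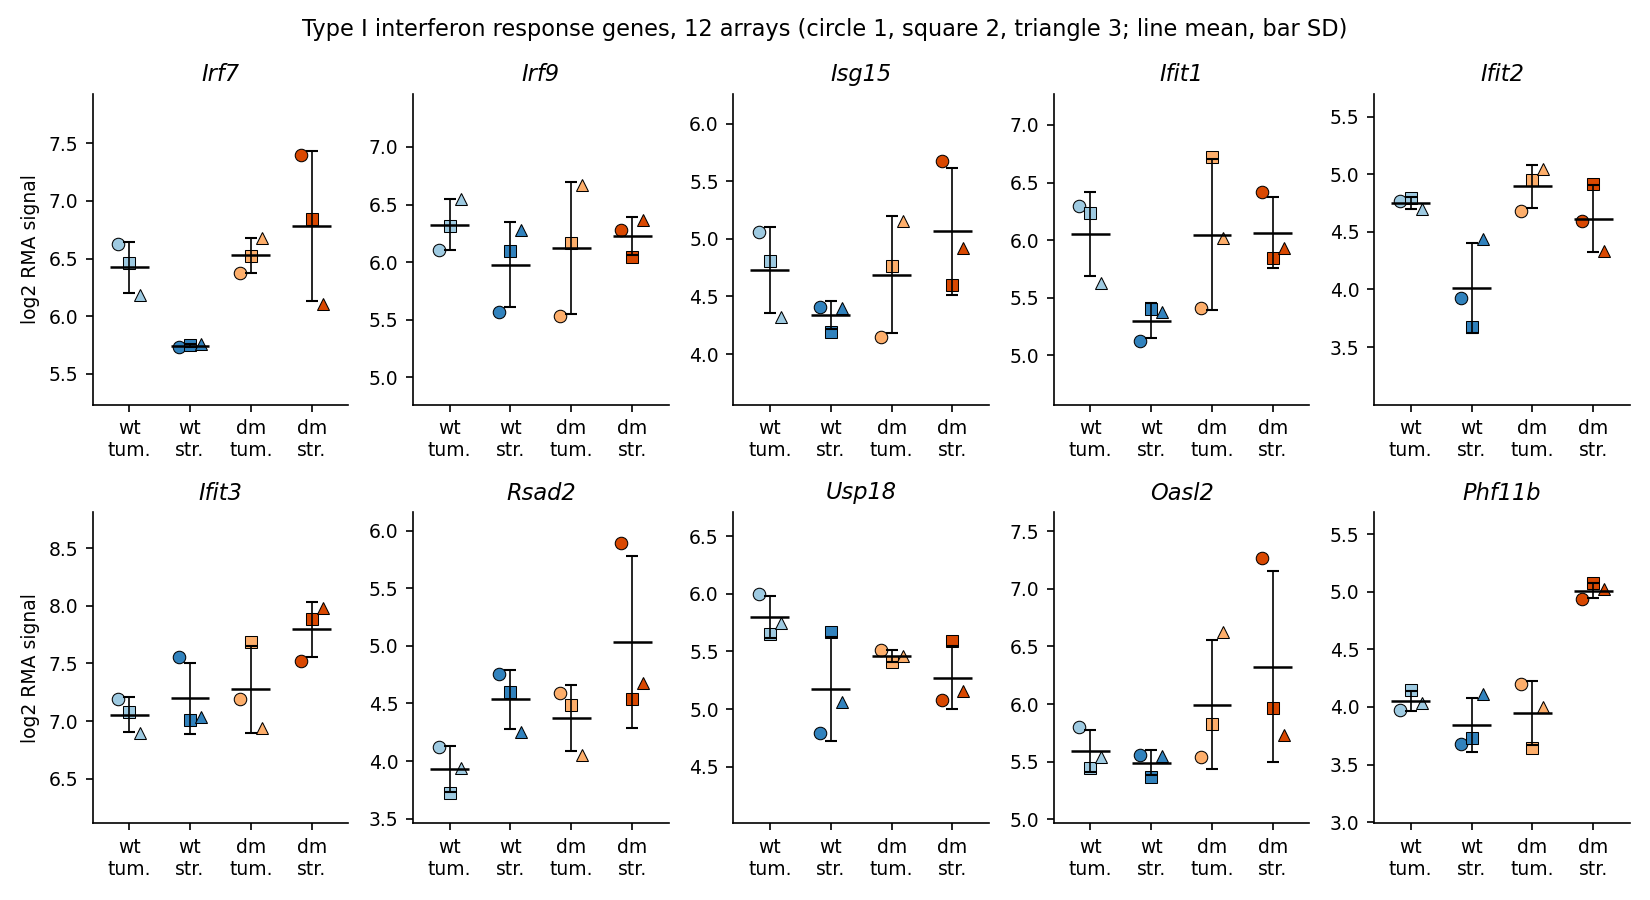
Log2 signal (vertical axis) of the 10 interferon response genes in the 4 groups, 1 panel per gene, with points for the 3 samples, a line for the group mean and a bar for the SD. In the Phf11b panel the 3 Stat3dm stroma samples, at 4.94 to 5.07, stand above all 9 others, and in the Rsad2 and Oasl2 panels 1 Stat3dm stroma sample, at 5.90 and 7.27, stands above the rest.

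Irf7 and Irf9 are the regulators of the set. IRF7, itself induced by interferon, drives the transcription of the interferon genes. Irf7 read 5.73, 5.75 and 5.76 in Stat3wt stroma and 7.40, 6.85 and 6.10 in Stat3dm stroma. The Stat3wt stroma samples were nearly equal and the Stat3dm samples were all above them but far apart, with replicate 1 highest. The difference was 1.04 ± 0.27 (SE), with a 95% confidence interval of 0.47 to 1.61 and an adjusted p of 0.430 in limma. In tumor, Irf7 read 6.62, 6.46 and 6.19 in Stat3wt and 6.38, 6.53 and 6.68 in Stat3dm. These overlapped throughout, and all 6 tumor samples were above all Stat3wt stroma samples. Irf9, a DNA-binding partner of STAT2, showed little order. It read 5.56, 6.10 and 6.28 in Stat3wt stroma and 6.28, 6.04 and 6.36 in Stat3dm stroma, which overlap, with a difference of 0.25 ± 0.28 (SE) and a 95% confidence interval of -0.34 to 0.84.

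Isg15 and Usp18 belong to the ISG15 system. ISG15 is a small ubiquitin-like protein that is attached to other proteins during the interferon response, and USP18 removes it and also restrains signalling at the interferon receptor. Isg15 read 4.41, 4.20 and 4.40 in Stat3wt stroma and 5.67, 4.60 and 4.92 in Stat3dm stroma. All 3 Stat3dm stroma samples were higher, 1.66-fold by the means (log2 difference 0.73 ± 0.30 SE, limma adjusted p = 0.914), and replicate 1 stood well above the other 2. Without that sample the difference was 0.42. Usp18 read 4.79, 5.67 and 5.06 in Stat3wt stroma and 5.08, 5.59 and 5.16 in Stat3dm stroma. These values overlapped, and the difference was 0.10 ± 0.23 (SE), with a 95% confidence interval of -0.40 to 0.60.

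Usp18 had its highest mean in Stat3wt tumor. It read 6.0, 5.65 and 5.74 there and 5.51, 5.41 and 5.46 in Stat3dm tumor. This was the only one of the 10 genes whose tumor samples did not overlap between genotypes, with a difference of -0.34 ± 0.23 (SE; limma, adjusted p = 0.823) and Stat3dm lower. After quantile normalization of the deposited values its tumor samples overlapped. Over all genes, 5.46% had tumor samples that did not overlap with Stat3dm lower.

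Ifit1, Ifit2 and Ifit3 encode proteins with tetratricopeptide repeats, of which IFIT1 binds viral RNA with unusual ends and IFIT2 and IFIT3 act with it. Ifit1 read 5.13, 5.40 and 5.38 in Stat3wt stroma and 6.42, 5.85 and 5.94 in Stat3dm stroma. The 2 groups did not overlap, and Stat3dm was 1.70-fold higher (log2 difference 0.76 ± 0.30 SE, limma adjusted p = 0.869). In tumor the Ifit1 means were the same to 2 decimals, 6.05 ± 0.37 (SD, n = 3) in Stat3wt and 6.05 ± 0.66 (SD, n = 3) in Stat3dm. Ifit2 read 3.93, 3.67 and 4.44 in Stat3wt stroma and 4.60, 4.92 and 4.33 in Stat3dm stroma. The highest Stat3wt sample was above the lowest Stat3dm sample, and the means differed by 0.60 ± 0.23 (SE). Ifit3 read 7.55, 7.01 and 7.04 in Stat3wt stroma and 7.52, 7.89 and 7.98 in Stat3dm stroma. Here too 1 Stat3wt sample overlapped with the Stat3dm samples, and the difference was 0.60 ± 0.24 (SE). Ifit3 has a near-identical neighbour, Ifit3b, whose own probe set was among the dimmest genes and was not tested, so how its transcript adds to the Ifit3 signal is uncertain.

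Rsad2 and Oasl2 are antiviral effectors. RSAD2, or viperin, makes a nucleotide that stops viral RNA synthesis, and OASL2 belongs to the oligoadenylate synthetases. Rsad2 read 4.76, 4.60 and 4.25 in Stat3wt stroma and 5.90, 4.54 and 4.67 in Stat3dm stroma. Only replicate 1 of Stat3dm stroma was above the Stat3wt samples. The difference of 0.50 ± 0.31 (SE) was 0.07 without it. Oasl2 read 5.56, 5.36 and 5.55 in Stat3wt stroma and 7.27, 5.97 and 5.73 in Stat3dm stroma. All Stat3dm samples were above all Stat3wt samples, with a difference of 0.83 ± 0.35 (SE; limma, adjusted p = 0.927), but replicate 1 set its size. Without that sample it was 0.36.

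Phf11b encodes a PHD finger protein, and its gene is 1 of a cluster of near-identical Phf11 genes in the mouse. It read 3.68, 3.73 and 4.11 in Stat3wt stroma and 4.94, 5.07 and 5.02 in Stat3dm stroma. The Stat3dm stroma samples lay close together and above every other sample of the study. Those other samples read 3.65 to 4.20, each below the median of its array and near the cutoff of 3.65 for dim genes. The difference was 1.17 ± 0.20 (SE), with a 95% confidence interval of 0.74 to 1.59 and an adjusted p of 0.115 in limma, rank 5 by p among all genes tested. It stayed between 1.09 and 1.3 when each array was left out in turn. The limma adjusted p was 0.0382 with the spread of each array as a covariate and 0.0161 with array weights. With the replicate number as a block it was 0.0305. Under every other setting Phf11b did not pass in this comparison. The lowest limma adjusted p of any of the 10 genes was 0.0885 after quantile normalization, 0.163 after median centring and 0.453 without Stat3wt stroma 1. In tumor the difference was -0.10 ± 0.20 (SE), with a 95% confidence interval of -0.53 to 0.32. Its paralogs Phf11a and Phf11d, named here after their values were seen, differed in stroma by -0.05 and -0.08. How probes divide between these copies is uncertain.

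Replicate 1 of Stat3dm stroma was the highest of its group in 5 of the 10 genes, Irf7, Isg15, Ifit1, Rsad2 and Oasl2. Leaving it out lowered the median difference of the 10 genes in stroma from 0.67 to 0.51, and all 10 stayed above 0. The number at an unadjusted p under 0.05 was 4 instead of 7 without it and 3 without Stat3wt stroma 2. Usp18 was at -0.09 without Stat3wt stroma 1 and at -0.06 without Stat3dm stroma 2, and Irf9 was at 0.04 without Stat3wt stroma 1.

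In tumor, the genotype comparison gave no common direction. Of the 10 genes, 5 were above and 5 below 0, with a median of 0.05 against -0.01 over all genes, where 48.7% were above 0. Rsad2, at 0.45 ± 0.31 (SE), and Oasl2, at 0.40 ± 0.35 (SE), had the highest differences, and none of the 10 had an unadjusted p under 0.05, where 6.26% of all genes did. Adjusted p-values ran from 0.823 to 0.998 in limma. Over all genes 3 passed, or 0.018%, and with the replicate number as a block 89 genes passed, none of them an interferon response gene.

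Whether the genotype difference was larger in stroma than in tumor was tested as an interaction. All 10 genes had a larger difference in stroma, by a median of 0.46, where 52.5% of all genes were above 0, and 8 of the 10 did so without Stat3dm stroma 1. Phf11b led with 1.27 ± 0.28 (SE), a 95% confidence interval of 0.67 to 1.87 and an unadjusted p rank of 3 over all genes, and Irf7 followed with 0.93 ± 0.38 (SE). These were the 2 members with an unadjusted p under 0.05, against 1.33% of genes called in that direction. Their number was 4 without Stat3wt tumor 3 and 1 without Stat3dm stroma 1, Stat3wt tumor 1 or Stat3dm tumor 1. Adjusted p-values in limma were at least 0.995 for all 10, and 0 genes passed in the whole table, where 401 genes (2.41%) had an unadjusted p under 0.05. The stroma and tumor differences of each gene thus stand side by side without a difference between them that passed.

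**Figure D2:**
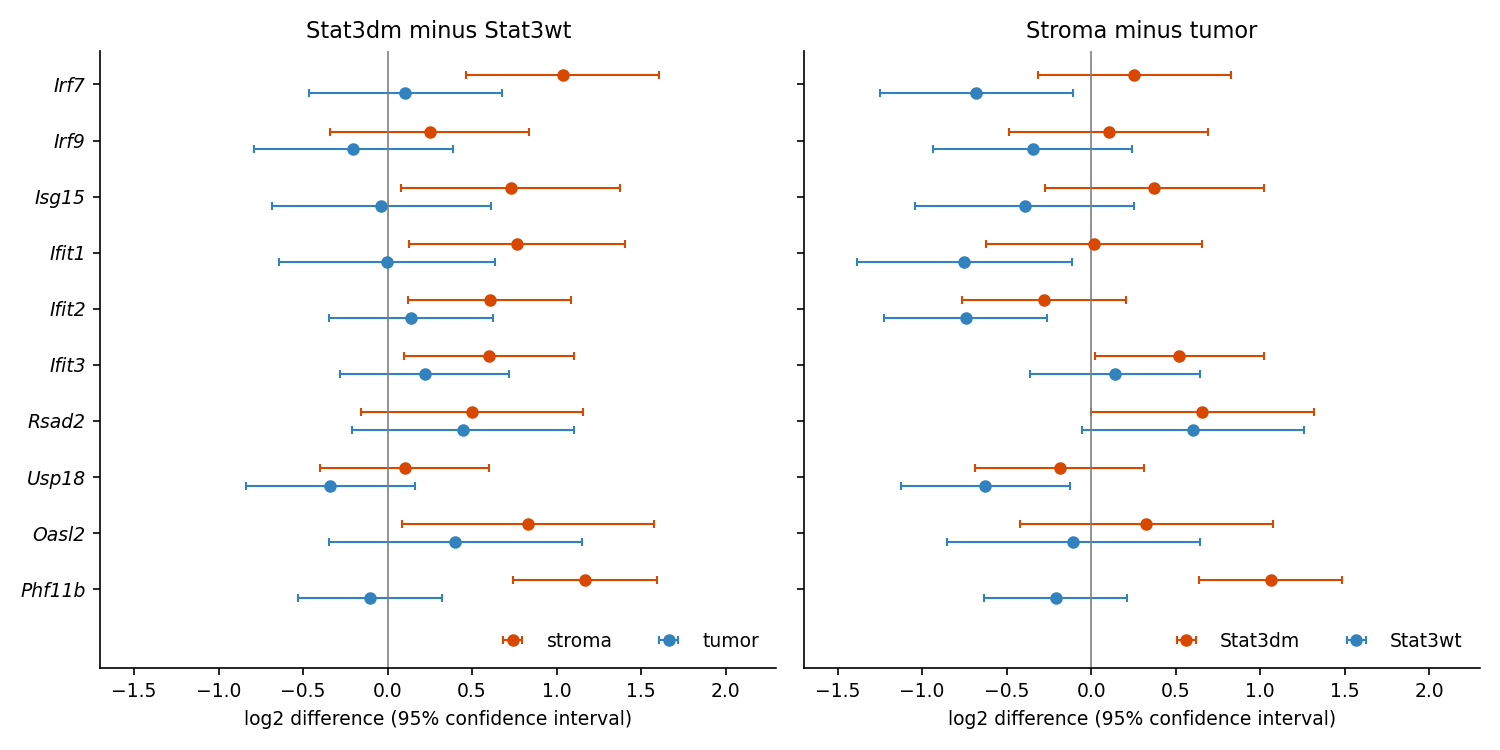
Fitted log2 differences (horizontal axis) of the 10 genes with 95% confidence intervals from limma, on the left Stat3dm minus Stat3wt in stroma and in tumor, on the right stroma minus tumor in each genotype. In stroma all 10 points of the left panel are above 0, from 0.10 for Usp18 to 1.17 for Phf11b, while the tumor points lie on both sides of 0.

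Stroma was also compared with tumor within each genotype. In Stat3wt mice 8 of the 10 genes were lower in stroma, with a median of -0.37 against -0.04 over all genes, where 46.7% were above 0. The lowest differences were those of Ifit1, -0.75 ± 0.30 (SE), Ifit2, -0.74 ± 0.23 (SE), and Irf7, -0.68 ± 0.27 (SE), and in these 3 every stroma sample was below every tumor sample. Their adjusted p-values in limma were 0.259, 0.217 and 0.259. Over all genes 15% did not overlap in that direction, and 0 genes passed while 2783 genes (16.7%) had an unadjusted p under 0.05. With Usp18, at -0.63 ± 0.23 (SE), 4 of the 10 had an unadjusted p under 0.05 in the lower direction, against 11.6% of all genes. Their number was 1 without Stat3wt tumor 1 and 2 without Stat3wt tumor 2 or Stat3wt stroma 1. Rsad2 went the other way. It read 4.12, 3.73 and 3.94 in Stat3wt tumor, all below the Stat3wt stroma samples, a difference of 0.60 ± 0.31 (SE; limma, adjusted p = 0.316), where 8.88% of all genes were higher without overlap.

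In Stat3dm mice the order was not the same. Of the 10 genes, 8 were higher in stroma than in tumor, with a median of 0.29 against -0.03 over all genes, where 45.5% were above 0. At an unadjusted p under 0.05, 3 of the 10 were higher, against 4.08% of all genes, and 1 or 2 with each array left out except Stat3dm stroma 3. Phf11b read 4.20, 3.65 and 4.0 in Stat3dm tumor, all below the stroma samples. Its difference of 1.06 ± 0.20 (SE), or 2.09-fold, had a 95% confidence interval of 0.64 to 1.49 and an adjusted p of 0.108 in limma, and of 0.0351 with the replicate number as a block. Only Phf11b did not overlap between the tissues, where 6.57% of all genes were higher in stroma without overlap. Rsad2, at 0.66 ± 0.31 (SE), and Ifit3, at 0.52 ± 0.24 (SE), were the next highest, with limma adjusted p-values of 0.516 and 0.501. Without Stat3dm stroma 1 the median was 0.00798, and Irf7, Ifit1 and Oasl2 were then at -0.05, -0.16 and -0.15. The count of all genes that passed went from 0 to 152 with the replicate number as a block, while 1610 genes (9.68%) had an unadjusted p under 0.05 without it.

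Stat3wt stroma had the lowest mean of the 4 groups in 8 of the 10 genes, the exceptions being Ifit3 and Rsad2, which were lowest in Stat3wt tumor. Stat3dm stroma had the highest mean in 7, the exceptions being Irf9, Ifit2 and Usp18. Most neighbours in these orders overlapped. Neighbouring groups were apart only at the lower end for Irf7 and Ifit1, where Stat3wt stroma was below the next group, and at the upper end for Usp18 and Phf11b.

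The 10 genes did not move as 1 block over the 12 arrays. The correlation of each gene with the mean of the other 9 was 0.895 for Irf7, 0.829 for Isg15, 0.773 for Oasl2 and 0.695 for Ifit1, and it was -0.081 for Usp18. Over the 45 pairs of genes, the Pearson correlation ran from -0.549 for Rsad2 with Usp18 to 0.848 for Isg15 with Oasl2, with a median of 0.363. After the group means were subtracted the median was 0.014. These correlations are descriptions over arrays that share groups and normalization. The 6 other genes whose levels were most like the mean of the 10, each centred on its own mean over the arrays, were Irf1 (r = 0.910), Tnfaip3 (0.890), Nfkbia (0.872), Zfp36 (0.859), Rnf19b (0.859) and Cited2 (0.859). Tnfaip3 and Nfkbia encode inhibitors of NF-kB, and Zfp36 a protein that speeds the decay of cytokine messages. In stroma these 6 genes differed between genotypes by 0.68 to 0.93. They were chosen for their likeness to the 10 genes on the same arrays, so this difference is a description that the choice itself favours.

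The wider pathway was described by 5 lists written from general knowledge, though with earlier results of these data known. They held 118 names, of which 108 had a named probe set and 89 were tested. None of their members passed an adjusted p of 0.05 in any of the 5 comparisons. The counts of each list are to be read beside the shares over all genes. In stroma 47.2% of genes had a difference above 0 between genotypes, 3.14% were higher and 1.94% lower at an unadjusted p under 0.05. In tumor these shares were 48.7%, 1.76% and 4.5%. Of the ligands, 19 were listed and 8 were bright enough to be tested, and Ifnb1, the gene of interferon-beta, was among the dim ones. In stroma 3 of these 8 had a higher mean in Stat3dm, with a median of -0.05, and 1 was lower at an unadjusted p under 0.05. That gene was Ifna14, of the interferon-alpha family, named after its values were seen, with a mean of 4.74 in Stat3dm and 5.28 in Stat3wt stroma (limma, adjusted p = 0.775).

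Of the receptors and signal transducers 7 of 9 had a higher mean in Stat3dm stroma, against 47.2% of all genes, with a median of 0.33, and 1 was higher at an unadjusted p under 0.05, against 3.14%. Stat2 read 6.38, 6.23 and 6.59 in Stat3wt stroma and 7.08, 6.71 and 6.99 in Stat3dm stroma, without overlap and with a difference of 0.53 (limma, adjusted p = 0.949). In this list 2 genes were higher in Stat3dm stroma without overlap, against 5.13% of all genes, and 1 was lower without overlap. The receptor genes Ifnar1 and Ifnar2 differed by 0.39 and 0.48 in stroma and by -0.54 and -0.30 in tumor. Ifnar2 was higher in stroma than in tumor of Stat3dm mice, by 1.09 ± 0.30 (SE; limma, adjusted p = 0.247), without overlap.

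Of the nucleic acid sensors 12 of 13 had a higher mean in Stat3dm stroma, against 47.2% of all genes, with a median of 0.28, and 3 were higher at an unadjusted p under 0.05, against 3.14%. Ifih1, the sensor of long double-stranded RNA known as MDA5, read 4.51, 4.93 and 4.71 in Stat3wt stroma and 5.55, 5.36 and 5.35 in Stat3dm stroma. These did not overlap, with a difference of 0.70 ± 0.25 (SE; limma, adjusted p = 0.777), while in tumor the difference was 0.00. Ddx58, the related sensor RIG-I, differed by 0.01 in stroma and by -0.70 in tumor.

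Other interferon-stimulated genes, 43 of them tested, were a less even group. In stroma 33 had a higher mean in Stat3dm, against 47.2% of all genes, with a median of 0.27. At an unadjusted p under 0.05, 11 were higher, against 3.14% of all genes, and 0 were lower, against 1.94%. Cmpk2, which neighbours Rsad2 and supplies its nucleotide substrate, differed by 0.46, Bst2 (tetherin, which holds virus particles to the cell) by 0.42, Oas3 by 0.37 and Oas2 by 0.26. Mx2 and Xaf1 differed by -0.17 and -0.04. In tumor 29 of the 43 had a higher mean in Stat3dm, with a median of 0.04. There 1 was higher and 3 were lower at an unadjusted p under 0.05, against 1.76% and 4.5% of all genes. The lowest was Ifitm3, which keeps viruses from entering the cell and is named after its values were seen, at -1.11 (limma, adjusted p = 0.504). In Stat3wt mice 35 of the 43 were lower in stroma than in tumor, with a median of -0.21. Over all genes 46.7% were above 0 there, with a median of -0.04. At an unadjusted p under 0.05 in limma, 7 of the 43 were lower, against 11.6% of all genes.

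Of the genes that answer mainly to interferon-gamma 16 were tested, and none passed in either tissue, with smallest limma adjusted p-values of 0.239 in stroma and 0.423 in tumor. In stroma 15 of the 16 had a higher mean in Stat3dm, against 47.2% of all genes, with a median of 0.73, and the exception was Cxcl11, at -0.28. In tumor all 16 had a higher mean, against 48.7% of all genes, with a median of 0.70. The 10 type I response genes had medians of 0.67 in stroma and 0.05 in tumor. At an unadjusted p under 0.05 in limma, 10 of the 16 were higher in stroma, against 3.14% of all genes. In tumor 6 were, against 1.76%, and 0 were lower in either tissue. The difference between the lists was not tested. Irf1, a transcription factor induced by interferon-gamma, differed by 0.91 ± 0.23 (SE) in stroma and by 0.29 in tumor. Cxcl9 and Cxcl10, chemokines that draw T cells, differed by 1.75 ± 0.36 (SE) and 0.90 ± 0.40 (SE) in stroma and by 0.93 and 0.74 in tumor. Their stroma differences had limma adjusted p-values of 0.420 for Irf1, 0.239 for Cxcl9 and 0.964 for Cxcl10.

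**Figure D3:**
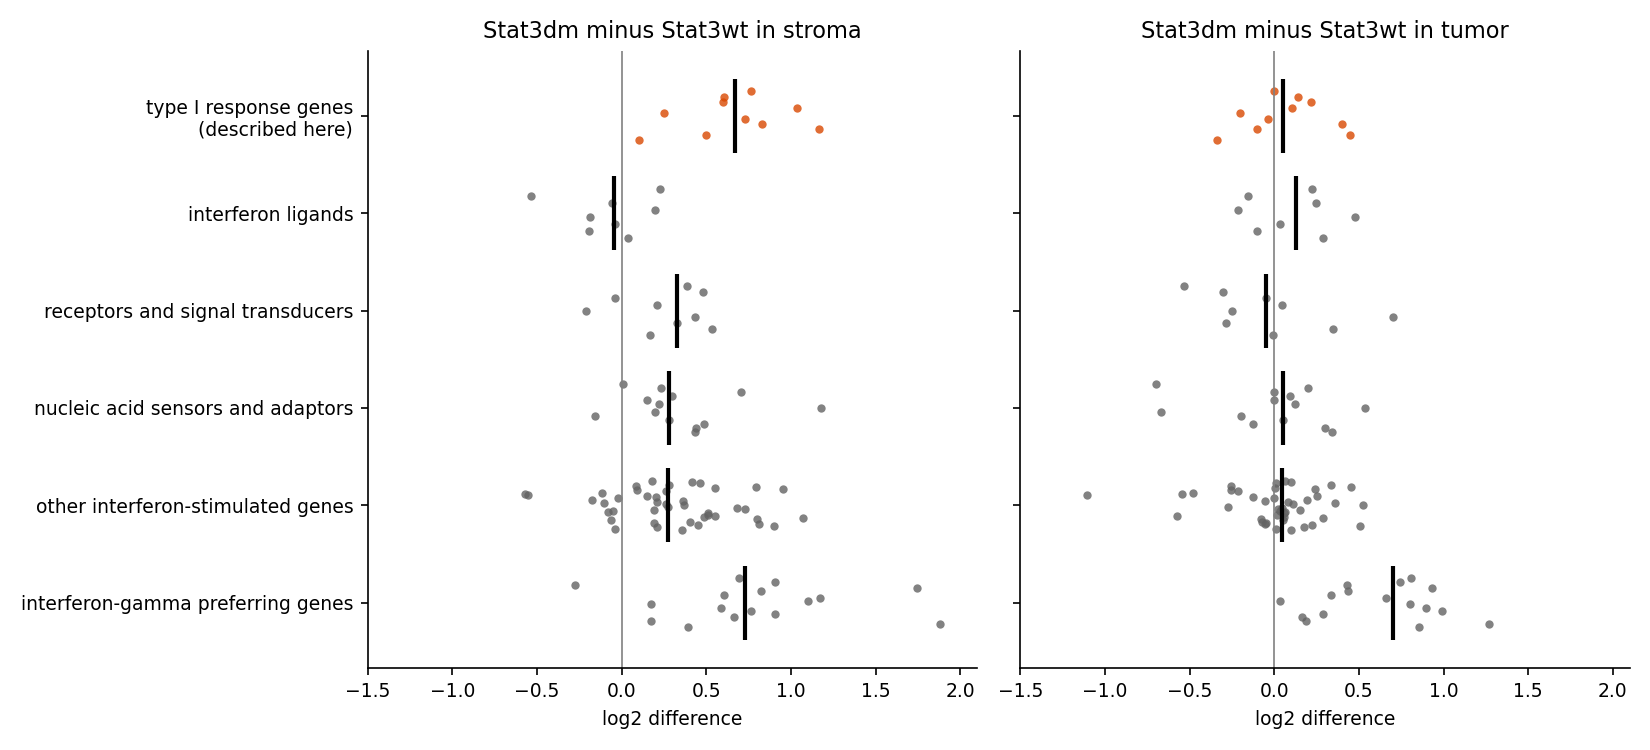
Log2 difference between Stat3dm and Stat3wt (horizontal axis) of every tested gene of the 10 type I response genes and of the 5 pathway lists, 1 row a list, in stroma (left) and in tumor (right), with a black bar at each list's median. The bar of the 10 genes is at 0.67 in stroma and 0.05 in tumor, and that of the interferon-gamma list at 0.73 and 0.70.

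Marker levels of several cell types are given beside the genotype difference in stroma, where 47.2% of all genes had a higher mean in Stat3dm. Of the markers, 0 of any list passed an adjusted p of 0.05. The mean of 6 leukocyte markers ran from 6.11 to 7.05 in Stat3wt stroma and from 7.50 to 7.86 in Stat3dm stroma, and all 6 had a higher mean in Stat3dm stroma, with a median of 1.03 and a smallest limma adjusted p of 0.096 for Cd53. Of 10 macrophage and monocyte markers 9 were higher, with a median of 0.41 and overlapping list means of 5.54 to 7.03 and 6.46 to 6.78. All 5 T cell markers tested were higher, with a median of 0.54. Their list means overlapped, at 5.15 to 5.58 in Stat3wt stroma and 5.51 to 6.31 in Stat3dm stroma. Stat3dm stroma 1 was the lowest of its group, at 5.51. The 5 neutrophil markers had a median of 0.82, with list means of 6.15 to 6.97 in Stat3wt stroma and of 8.32, 6.84 and 6.73 in Stat3dm stroma. Replicate 1, the stroma sample with the highest Irf7, Isg15, Ifit1, Rsad2 and Oasl2, was thus also the highest in neutrophil markers. Among stroma samples it also had the highest mean of epithelial markers, 8.60, above Stat3wt tumor 2 at 8.53 and Stat3dm tumor 1 at 8.49. Its means of fibroblast and endothelial markers, 7.56 and 5.88, were the lowest among stroma samples. Of 4 markers of plasmacytoid dendritic cells, a main source of interferon, Ly6c2, which monocytes also carry, differed by 1.63 (limma, adjusted p = 0.229), Siglech by 0.41, Pacsin1 by 0.14 and Tcf4 by -0.42. Most of the difference in the mean of these 4 is that of Ly6c2. Of 6 fibroblast markers 1 was higher in Stat3dm stroma, with a median of -0.17. The part of these cell types in the interferon gene levels was not tested.

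**Figure D4:**
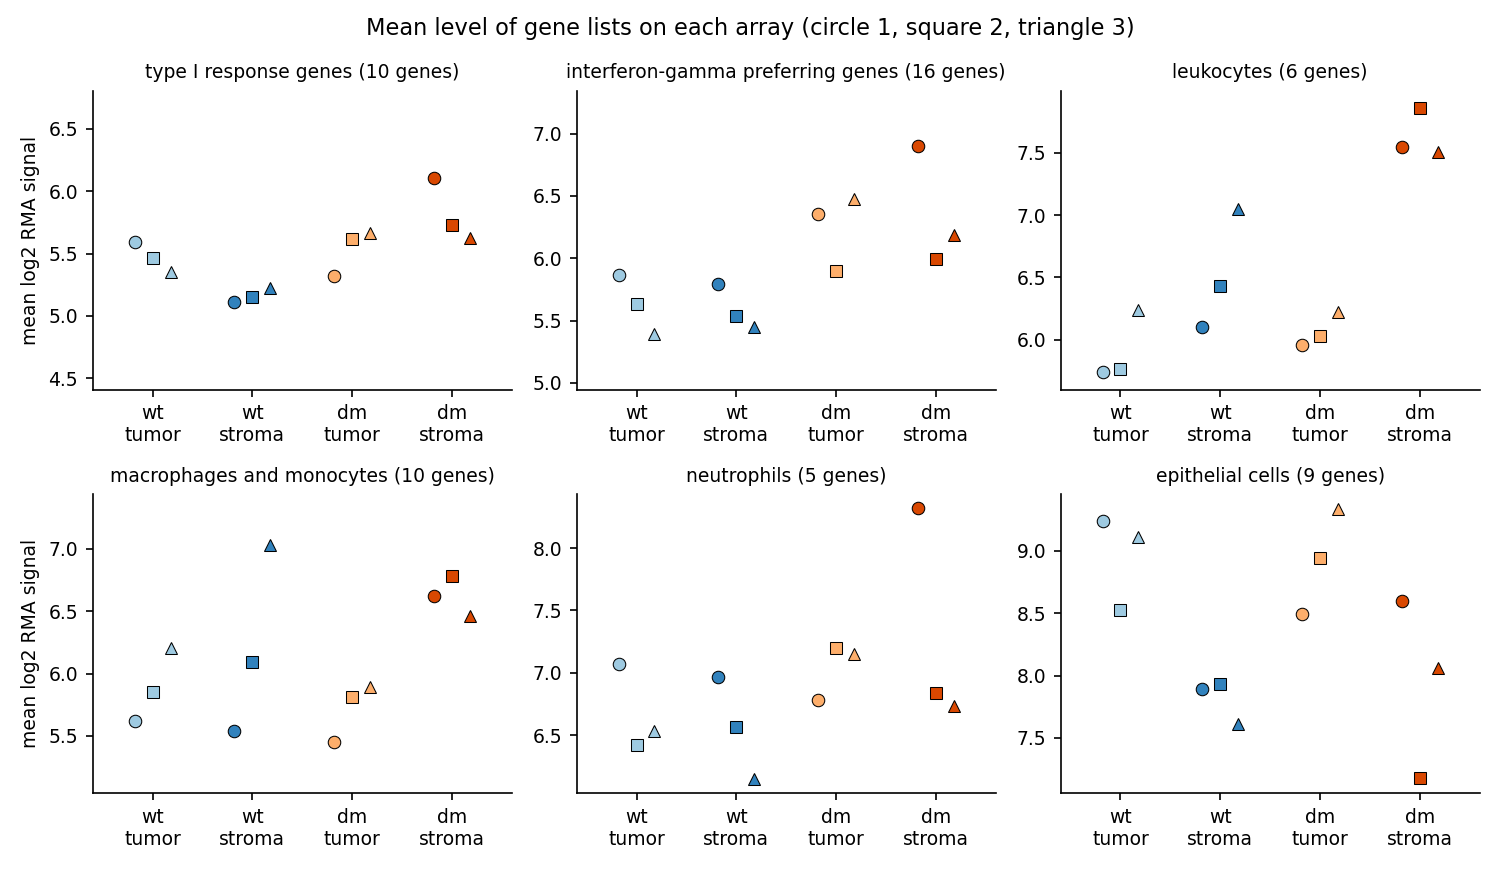
Mean log2 signal (vertical axis) in each of the 12 arrays by group, for the 10 type I response genes, the interferon-gamma list and the leukocyte, macrophage, neutrophil and epithelial markers. The mean of the 10 genes is lowest in the 3 Stat3wt stroma samples, at 5.11 to 5.23, and highest in Stat3dm stroma 1, at 6.11. That array is also the highest in neutrophil markers, at 8.32, and the highest stroma array in epithelial markers, at 8.60.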

How the data were processed

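RNA from laser-captured, paraffin-embedded tissue was amplified from 50 ng and hybridised to 1 single-colour Affymetrix array per sample, per the labels' protocols. For 41345 probe sets the authors deposited log2 signals from RMA (background subtraction, quantile normalization and summary of probes); the submitters' processing notes name Affymetrix Expression Console 1.3.1. The log2 values were used as deposited. No genome build of the probes is given in the sources used here. RMA normalizes the probes, yet medians and spreads of the arrays were not equal in these values.

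Probe sets with 1 gene symbol in the platform annotation (23521) were used, and the one with the highest mean stood for a gene. Genes below a mean log2 of 3.65 were left out. limma 3.58.1 (R 4.3.3) fitted the means of 4 groups over 12 arrays, with 5 contrasts, eBayes and Benjamini-Hochberg adjustment over the 16635 genes at 0.05; the fit was tested on simulated data. All adjusted p-values are from it unless another setting is named.

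The members and lists were chosen with earlier results of these data known. The genes named are the 10 members, a fixed set of pathway genes, any list member that passed and the 6 genes most like the members' mean; other names are marked in the text. Through synonyms, 2 list names were matched.

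In tumor between genotypes, deviations of the same number correlated at 0.317, 0.150 and 0.692, but Stat3wt tumor 2 reached 0.593 with another number. Between the tissues of Stat3dm they correlated at 0.123, 0.157 and 0.298, and tumor 1 reached 0.125 with another number. Between the tissues of Stat3wt the values were 0.439, -0.004 and 0.512, and in stroma between genotypes 0.152, -0.040 and 0.113. Stat3wt tumor with Stat3dm stroma, which no contrast compared, gave 0.191, 0.219 and 0.205, each above the other numbers. Stat3wt stroma with Stat3dm tumor, also not compared, gave 0.439, 0.069 and 0.418, and Stat3wt stroma 2 reached 0.097 with another number. The labels give no basis for the pairing. The block's values stand beside the results in tumor between genotypes and between the tissues of Stat3dm. Alternatives changed the filter, the choice of probe set, the scaling, the weights, the covariates and the arrays included.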

Additional observations from a re-analysis of the deposited data

How the results depend on the processing

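The 19 alternatives were another normalization, centring on the median, no filter on dim genes, the mean over probe sets, array weights, the spread of each array as a covariate, the replicate block and each of 12 arrays left out. Array weights used a gene-by-gene estimate, chosen after seeing that the default did not converge. Of 950 differences of single members under these, 35 had the sign turned, 3 of them in stroma between genotypes, all of Usp18. Where the difference had exceeded its SE, 1 turned, Irf9 between the tissues of Stat3wt, at 0.18 with the spread covariate.

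For Stat3dm against Stat3wt in stroma, 0 genes passed, against 1 after quantile normalization, 13 with the spread covariate, 45 with array weights and 28 with the replicate block, and 0 to 2 with an array left out. In tumor, 3 passed, against 14 with the covariate, 304 with weights, 89 with the replicate block and 0 to 7 with an array left out, 0 of them without Stat3wt tumor 3. For the interaction, 0 passed, and 3 with weights. Between the tissues of Stat3wt, 0 passed, against 1020 with weights, 138 with the replicate block and 0 to 8 with an array left out, the 8 without Stat3wt stroma 2. Between those of Stat3dm, 0 passed, against 33 after quantile normalization, 114 with the covariate, 612 with weights, 152 with the replicate block and 0 to 22 with an array left out, the 22 without Stat3wt stroma 3. The causes were not tested.

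Phf11b was the 1 member that passed in stroma between genotypes, with the covariate (adjusted p = 0.0382), with weights (0.0161) and with the replicate block (0.0305). Samples of the same number did not all deviate together there, with correlations of 0.152, -0.040 and 0.113. It was also the 1 member that passed between the tissues of Stat3dm, under the same 3 settings (0.0214, 0.00163 and 0.0351) and after quantile normalization (0.0487), and for the interaction with weights (0.0357). With weights 3 members passed between the tissues of Stat3wt, Irf7 (0.0371), Ifit1 (0.0366) and Ifit2 (0.0170). No member passed with an array left out. The block changed no other member's call.

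With an array left out, the members' median ran from 0.51 to 0.81 in stroma between genotypes, from -0.05 to 0.24 in tumor, from 0.40 to 0.74 for the interaction (0.67 without Stat3dm stroma 3), from -0.46 to -0.29 between the tissues of Stat3wt and from 0.00798 (without Stat3dm stroma 1) to 0.44 between those of Stat3dm. The signal of 3 arrays a group limits each single difference to an SE of 0.20 to 0.35 between groups.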
